A study of Mus musculus with 12 samples.

Results

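A set of 8 genes that are read together as marks of noradrenergic sympathetic neurons were followed across teratomas of mouse embryonic stem (ES) cells, and they did not move as one group. The genes are Dbh, Th, Slc6a2, Phox2a, Hand2, Gata3, Chrna3 and Prph, 8 of the 38986 genes listed in each library, and they were picked by name with their levels in these same libraries already known. For that reason their levels and fold changes are given as a description, without p-values. All 8 passed the filter on low counts that left 18405 genes for testing.

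The teratomas grew from R1 mouse ES cells that had been transduced with a lentiviral vector with a CAG promoter and selected with puromycin. The ET group carried the empty vector, WT carried wild-type Dnmt3L, a cofactor of the de novo DNA methyltransferases, and K238R and K412R carried Dnmt3L in which that lysine, an acetylation site, was replaced by arginine. All 4 groups thus carried the vector. In each case 5000000 cells were placed under the skin of 8-week-old male immunodeficient NOD-Prkdc EM1 mice, and the tumors were removed at day 21. Each group had 3 libraries, and the labels do not tie them to separate mice or cell lines, so p-values measure the spread between these libraries only.

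Library totals ran from 16957677 to 18546100 counts. Dnmt3l itself had 11 to 137 counts in ET, 2941 to 3643 in WT and 463 to 699 in K412R, but 10 to 35 in the libraries labelled K238R. The transcript in the libraries labelled K238R therefore goes against their label, and no direction below is drawn from that mutation. K412R also held less Dnmt3l transcript than WT. In K412R against WT, the changed residue and the lower transcript level cannot be told apart. Below, K238R stands for the libraries labelled K238R. ET replicate 2 and WT replicate 1 lay farther from the mean of their group's other libraries (root mean square difference over all tested genes of 0.515 and 0.409 in log2 of CPM + 1, where CPM is the count scaled to a library total of 1000000) than their group mates did. The others had 0.267 to 0.365, except ET replicate 3 at 0.447, whose group mates include ET replicate 2. By Pearson correlation with the rest of its group, ET replicate 2 was the lowest library (r = −0.53). WT replicate 1 (0.24) was below its group mates (0.70 and 0.71). It was above ET replicate 3 (0.14), K412R replicate 2 (0.18) and the K238R libraries (−0.09 to 0.11), so its distance depends on the measure. Values without ET replicate 2 and WT replicate 1 are given where they matter. These libraries were picked by their distance in these same data, and leaving them out narrows the spread within groups. P-values and calls from such fits are therefore descriptions and not further tests. In whole tumors, fewer cells of a type and less RNA per cell cannot be told apart.

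Sympathetic neurons arise from the neural crest and release noradrenaline. Th (tyrosine hydroxylase) makes L-DOPA from tyrosine, the rate-limiting step of catecholamine synthesis, Ddc turns L-DOPA into dopamine, and Dbh (dopamine beta-hydroxylase) turns dopamine into noradrenaline, which Slc6a2 takes back up after release. Transcription factors that act in these neurons include the homeodomain protein Phox2a with Hand2, Gata2 and Gata3, and they receive their input through nicotinic receptors that contain Chrna3. None of these genes is limited to them. Th also marks dopaminergic neurons of the midbrain, Phox2a marks several groups of hindbrain neurons, Hand2 marks heart and limb, Gata3 marks many epithelia and T cells, and Prph (peripherin), an intermediate filament protein, is found in motor and sensory neurons.

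Upstream sequences are shown for 3 members whose levels took different courses: Dbh, Th and Chrna3. Each run is the 250 bases before the annotated transcription start in RefSeq (GRCm38.p6, with the region and strand beside the name), where 7 of the 8 members had an entry. Capitals mark ATTA on either strand, the core that many homeodomain proteins bind, and the palindrome TGACGTCA, the cyclic AMP response element.
Dbh, chr2:27165257-27165506, plus strand: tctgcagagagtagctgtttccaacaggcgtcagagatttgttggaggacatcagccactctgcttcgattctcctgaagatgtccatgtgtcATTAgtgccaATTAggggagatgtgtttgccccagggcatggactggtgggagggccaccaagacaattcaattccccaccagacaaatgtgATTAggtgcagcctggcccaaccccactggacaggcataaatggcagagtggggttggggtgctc
Th, chr7:142899996-142900245, minus strand: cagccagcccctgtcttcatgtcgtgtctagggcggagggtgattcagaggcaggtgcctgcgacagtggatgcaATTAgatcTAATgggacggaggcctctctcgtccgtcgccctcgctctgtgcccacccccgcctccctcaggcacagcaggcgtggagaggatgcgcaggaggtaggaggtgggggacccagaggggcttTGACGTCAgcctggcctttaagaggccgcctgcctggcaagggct
Chrna3, chr9:55026563-55026812, minus strand: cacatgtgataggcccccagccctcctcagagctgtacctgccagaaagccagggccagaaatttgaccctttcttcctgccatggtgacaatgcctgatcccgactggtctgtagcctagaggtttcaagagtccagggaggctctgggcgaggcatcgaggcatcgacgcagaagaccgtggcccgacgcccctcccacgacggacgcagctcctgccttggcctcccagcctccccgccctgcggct
The window of Dbh holds 3 ATTA cores, that of Th holds 2 with 1 TGACGTCA, and that of Chrna3 holds neither. Of 32851 promoter windows of this length, 54.9% hold at least 1 ATTA, 30.8% at least 2, 17.3% at least 3, and 1.55% hold TGACGTCA. The E box CANNTG, which shares no letters with ATTA but can share ends with TGACGTCA, occurs 2 times upstream of Dbh, 1 time upstream of Th and 2 times upstream of Chrna3, and 66.2% of windows hold it. These matches describe the letters in the windows and say nothing of which factor was bound.

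Per kilobase of exon, Prph had the highest mean level of the 8 over the 12 libraries (23.3 CPM per kb), followed by Th (10.2) and Gata3 (9.31). Phox2a (2.90) and Chrna3 (2.15) were lower, and Dbh (0.865), Hand2 (0.605) and Slc6a2 (0.413) were lowest. The 3 lowest had 4 to 82 counts per library for Dbh, 7 to 47 for Hand2 and 11 to 116 for Slc6a2. All other levels below are plain CPM, which compare libraries and not genes.

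**Figure D1:**
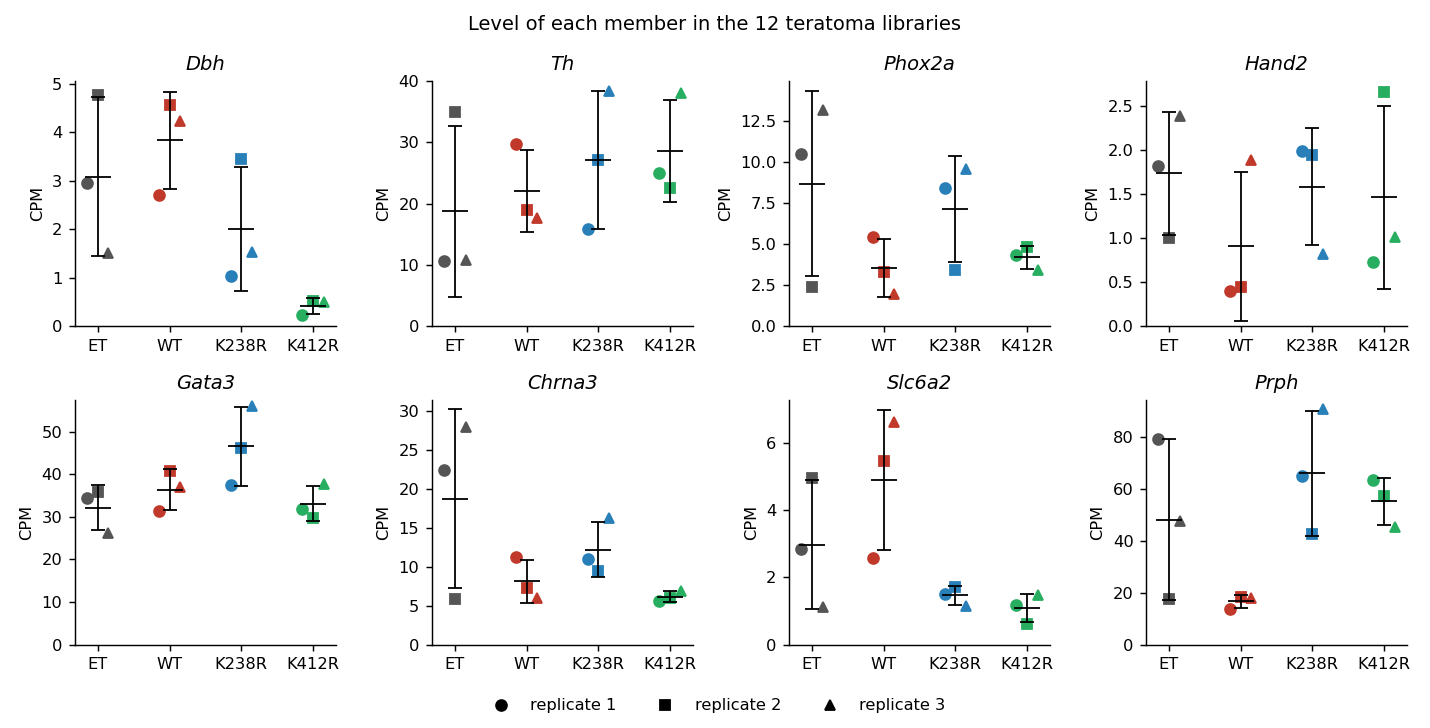
Level of each of the 8 genes in CPM (linear axes from 0) in the ET, WT, K238R and K412R libraries. Points are libraries, with a symbol for each replicate number, and bars are the mean ± SD (n = 3). Dbh lies between 0.22 and 0.51 CPM in K412R and at 1.02 CPM or above in every other library.

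Of the enzyme and transporter genes of noradrenaline, Dbh was the one whose K412R libraries lay apart from every other group. Dbh measured 2.96, 4.78 and 1.501 CPM in ET, 2.70, 4.57 and 4.22 in WT, 1.02, 3.44 and 1.52 in K238R, and 0.22, 0.51 and 0.51 in K412R. The 3 K412R libraries, with 4, 9 and 9 counts, lay below all 9 others, a position that 1.24% of the genes tested took. The fitted log2 fold change of Dbh was −3.22 ± 0.58 (SE) for K412R against WT and −2.87 ± 0.58 for K412R against ET. For WT against ET it was 0.35 ± 0.48, and for K238R against WT −0.98 ± 0.49, and in both of these the libraries overlapped.

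Slc6a2 followed a similar course. Its levels were 2.84, 4.95 and 1.11 CPM in ET, 2.59, 5.46 and 6.62 in WT, 1.51, 1.72 and 1.14 in K238R, and 1.17, 0.62 and 1.46 in K412R. The K238R and K412R libraries lay below every WT library, whereas both groups overlapped with ET, whose replicate 3 was as low as they were. The log2 fold change was −2.20 ± 0.52 for K412R against WT and −1.79 ± 0.51 for K238R against WT.

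Th, the first enzyme of the same pathway, did not share this pattern. It measured 10.6, 34.9 and 10.7 CPM in ET, 29.7, 18.9 and 17.6 in WT, 15.8, 27.1 and 38.3 in K238R, and 25.1, 22.6 and 38.1 in K412R. The ranges of all 4 groups overlapped, and the log2 fold change was 0.26 ± 0.45 for WT against ET and 0.35 ± 0.44 for K412R against WT. ET replicate 2 was the more than 3 times the level of the other ET libraries, and without it the log2 fold change of WT over ET was 1.07. For K412R against ET it was 0.61 ± 0.44 with all libraries and 1.44 without ET replicate 2. The K412R libraries with the lowest Dbh thus held Th within the range of the other libraries, and above ET replicates 1 and 3.

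The transcription factors of the list differed from one another. Phox2a measured 10.5, 2.36 and 13.2 CPM in ET, 5.45, 3.29 and 1.94 in WT, 8.41, 3.44 and 9.55 in K238R, and 4.35, 4.81 and 3.42 in K412R. The 4 highest libraries were ET replicates 1 and 3 and K238R replicates 1 and 3, while ET replicate 2 lay within the WT range. In WT against ET its log2 fold change was −1.28 ± 0.56 with all libraries and −2.13 without ET replicate 2 and WT replicate 1. For K412R against WT it was 0.23 ± 0.57.

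Hand2 was low throughout, at 1.82, 1.002 and 2.39 CPM in ET, 0.39, 0.45 and 1.88 in WT, 2.00, 1.94 and 0.81 in K238R, and 0.72, 2.66 and 1.01 in K412R. Its groups overlapped in every comparison, and the standard error of each fold change was 0.66 to 0.69. Gata3 was the steadiest of the 8, at 34.4, 35.9 and 26.1 CPM in ET, 31.4, 40.8 and 37.0 in WT, 37.5, 46.1 and 56.0 in K238R, and 31.9, 29.7 and 37.6 in K412R. The K238R libraries lay above every ET library (log2 fold change 0.52 ± 0.16), and no other pair of groups compared was apart.

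Chrna3, the ganglionic receptor subunit, measured 22.5, 5.84 and 27.9 CPM in ET, 11.2, 7.25 and 5.93 in WT, 11, 9.39 and 16.2 in K238R, and 5.63, 5.94 and 6.90 in K412R. As with Phox2a, ET replicates 1 and 3 were the highest and ET replicate 2 was at the WT and K412R level. The log2 fold change was −1.19 ± 0.44 for WT against ET, −1.89 without ET replicate 2 and WT replicate 1, and −1.61 ± 0.45 for K412R against ET.

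Prph measured 79.4, 17.5 and 47.7 CPM in ET, 13.8, 18.3 and 18.0 in WT, 64.9, 42.6 and 90.7 in K238R, and 63.3, 57.2 and 45.4 in K412R. Every K238R and K412R library exceeded every WT library, and ET replicate 2 was again at the WT level. The log2 fold change was −1.499 ± 0.43 for WT against ET, 1.93 ± 0.44 for K238R against WT and 1.71 ± 0.43 for K412R against WT. Prph was thus higher in K412R than in WT, and Dbh and Slc6a2 were lower. For K412R against ET, Prph had a log2 fold change of 0.21 ± 0.42, and the libraries overlapped.

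**Figure D2:**
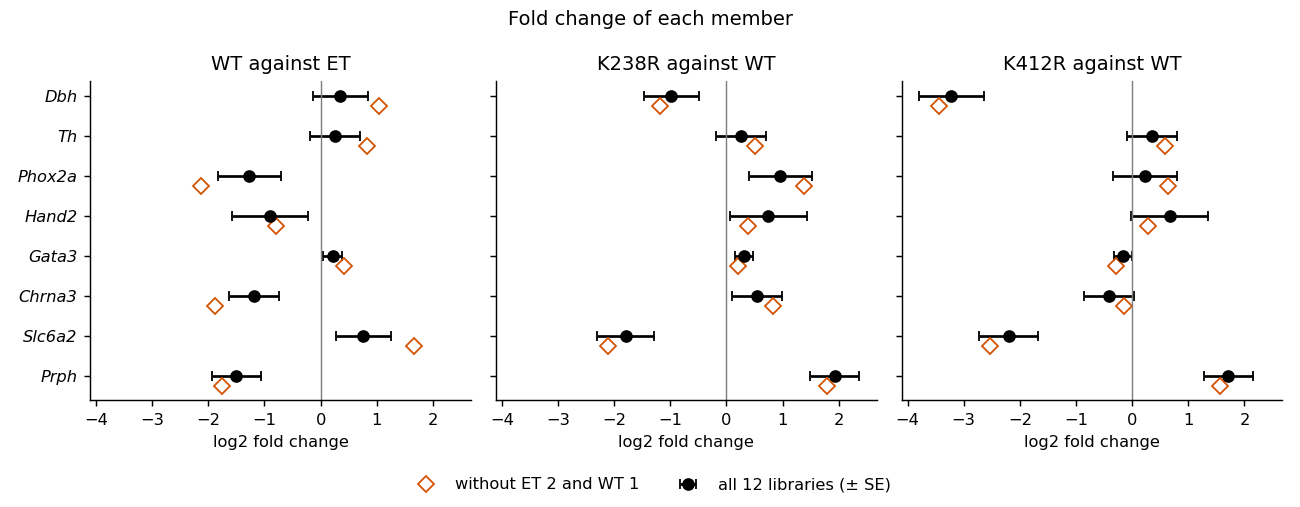
Log2 fold change of each of the 8 genes for WT against ET, K238R against WT and K412R against WT. Filled points with bars are the fit to all 12 libraries ± SE and open diamonds the fit without ET replicate 2 and WT replicate 1. In K412R against WT, Dbh (−3.22) and Slc6a2 (−2.20) lie on one side of 0 and Prph (1.71) on the other.

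Set against all genes, few of the 8 stood out by the test. At an adjusted p under 0.05 (edgeR quasi-likelihood test, Benjamini-Hochberg over all genes tested), 0 of 8 were called for WT against ET, where 0.0489% of all genes were called, and 0 of 8 for K238R against WT (0.174% of all genes). In K412R against WT, 1 of 8 was called, Dbh, as lower, where 2.02% of all genes were called in either direction and 0.69% as lower. No gene at all was called by edgeR in K238R against ET or K412R against ET (0%). At an unadjusted p under 0.05, 3, 2 and 3 members passed in WT against ET, K238R against WT and K412R against WT (29.1%, 17.6% and 22.8% of all genes), and 1 and 3 passed in K238R and K412R against ET (5.58% and 7.86%, or 1027 and 1446 genes). DESeq2, an alternative count model, called 1, 2 and 3 members in the first 3 comparisons (11%, 4.27% and 9.18% of all genes) and 0 and 2 in the 2 against ET (0.0761% and 0.542%, or 14 and 90 genes). Its 3 members in K412R against WT were Dbh, Slc6a2 and Prph. The Dbh call was lost on leaving out any 1 K412R library, WT replicate 2 or WT replicate 3, while its log2 fold change stayed between −3.43 and −2.94. Since the comparisons share the WT or ET libraries, they are not independent of each other. Libraries of the 2 groups were apart for 0 of 8 members in WT against ET (20.8% of all genes), 2 in K238R against WT (24.0%), 3 in K412R against WT (31.1%), 1 in K238R against ET (9.18%) and 1 in K412R against ET (10.8%).

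Across the 12 libraries, the 8 genes fell into several courses. Of the 28 pairs of members, 16 had a negative Pearson correlation (log2 of CPM + 1) and only 3 exceeded 0.6: Phox2a with Chrna3 (r = 0.89), Dbh with Slc6a2 (r = 0.84) and Phox2a with Prph (r = 0.65). Dbh had r = −0.12 with Th, −0.32 with Phox2a and −0.64 with Prph, and Slc6a2 had r = −0.75 with Prph. These are descriptions over 12 points that share groups and whole-tumor composition. The correlation of Dbh with Slc6a2 was 0.89 without the 2 libraries farthest from the median of Dbh (K412R replicates 1 and 3), and 0.72 on deviations from the group means. That of Phox2a with Chrna3 was 0.79 without ET replicates 1 and 3, and 0.92 on deviations from the group means. On the same deviations Dbh had 0.45 with Th, −0.85 with Phox2a and −0.52 with Prph, and Slc6a2 had −0.38 with Prph. Without K412R replicates 1 and 3, Dbh had 0.13 with Th and −0.61 with Phox2a. The libraries thus showed no joint rise and fall of the noradrenergic set, and the 8 are named here by gene and not as the mark of a single cell type.

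**Figure D3:**
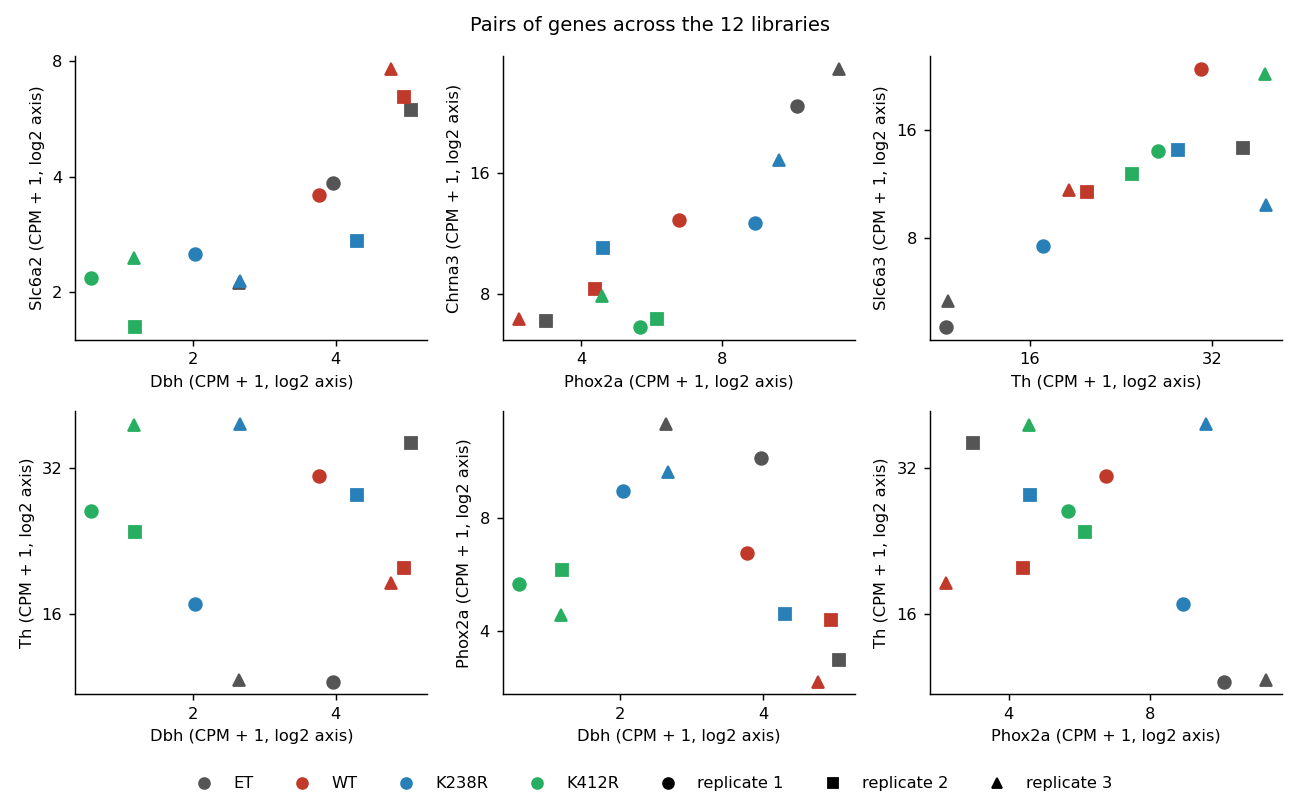
Levels of 6 pairs of genes in the 12 libraries, as CPM + 1 on log2 axes, with color for the group and symbol for the replicate number. Dbh rises with Slc6a2 (r = 0.84), Phox2a with Chrna3 (r = 0.89) and Th with Slc6a3 (r = 0.84), whereas Dbh with Th (r = −0.12), Dbh with Phox2a (r = −0.32) and Phox2a with Th (r = −0.48) show no common rise over the 12 libraries. On deviations from the group means Dbh had r = 0.45 with Th and −0.85 with Phox2a, and Phox2a had −0.50 with Th.

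Among 119 other listed genes at 1 CPM or more, the members differed in their closest genes, with some genes shared between Dbh and Slc6a2 and between Phox2a and Chrna3. Phox2a was close to Isl1 (r = 0.99), Neurog1 (0.97) and Tbx20 (0.96), factors shared with hindbrain motor, sensory and, for Isl1 and Tbx20, heart cells, and it had r = 0.93 with Chrnb4. Chrna3 was closest to Neurog1 (0.93) and Chrnb4 (0.92), the beta-4 subunit with which it assembles. Th was closest to the receptor tyrosine kinase Ret (0.92), the granule protein Chgb (0.91), the midbrain dopaminergic factors Pitx3 (0.89) and Nr4a2 (0.88), and had 0.84 with the dopamine transporter Slc6a3, or 0.61 for the last without ET replicates 1 and 3. Prph was closest to the choline transporter Slc5a7 (0.97) and the vesicular acetylcholine transporter Slc18a3 (0.89). Dbh and Slc6a2 were closest to Tnnt2, cardiac troponin T (0.86 and 0.91), then Alk (0.85 and 0.83), a receptor tyrosine kinase of sympathetic precursors. Gata3 and Hand2 reached at most 0.78 (Nwd2) and 0.68 (Tpbpa).

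Among 16409 genes at a mean of 1 CPM or more, those most like Dbh included Myh7b (r = 0.97), Atp5o (0.95), Gm3973, Mest, Tomm40l, Ttc7b, Pcp4, Pip5kl1 and Sst (0.89 to 0.92). Mest, an imprinted gene, ranged from 442 to 2623 CPM. Those most like the mean of the 8 members, each scaled to unit variance, included Scn9a, Map3k13, Zfp821, Ccnb1ip1, Elavl2, Kcp, Vangl2, Angel2 and Pcbp3 (0.87 to 0.90).

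The factors that act beside Phox2a, Hand2 and Gata3 were read from a list of 12 autonomic transcription factors, of which 11 were tested. For WT against ET 2 were above 0 and 9 below (median log2 fold change −0.55, against −0.01 over all genes tested), for K238R against WT 9 were above and 2 below (median 0.57), and none was called in either. For K412R against WT 6 were above and 5 below (median 0.06), and for K412R against ET 1 was above and 10 below (median −0.68). Isl1, a LIM-homeodomain factor of sympathetic, sensory and motor neurons, measured 36.3, 7.96 and 51.4 CPM in ET, 17.3, 10.04 and 5.53 in WT, 40.01, 11.4 and 36.7 in K238R, and 13.1, 14.6 and 9.88 in K412R. As with Phox2a, ET replicate 2 and K238R replicate 2 lay within the WT range while the other libraries of these groups were higher. In WT against ET its log2 fold change was −1.53 ± 0.62 (edgeR adjusted p = 0.139). Without ET replicate 2 it was −1.98 (edgeR adjusted p = 0.0134, only as a description). Gata2, a zinc finger factor related to Gata3, had −0.13 ± 0.15 (adjusted p = 0.574) in the same comparison. Hand1 stayed at 0 to 2.67 CPM outside K238R, where it measured 10.3, 1.45 and 2.28 CPM. Hmx1, a factor of differentiating sympathetic neurons, was under 1 CPM in every library.

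In K412R against WT 1 of the 11 factors was called. Tfap2b, an AP-2 factor of the sympathetic lineage, fell (log2 fold change −3.01 ± 0.60, edgeR adjusted p = 0.0336, 6.18e-06 to 0.147 over the alternatives), from 6.30, 27.04 and 31.1 CPM in WT to 3.06, 2.997 and 2.08 in K412R. Like Dbh it was lowest in K412R, in all 3 libraries, and WT replicates 2 and 3 were the highest of the 12. The ET libraries had 10.8, 7.61 and 4.45 CPM and the K238R libraries 11.9, 9.50 and 3.80.

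The genes that complete catecholamine synthesis, supply its cofactor, and store or break down the transmitter gave no calls. Of 13 listed, 12 were tested and none was called for WT against ET, K238R against WT or K412R against WT, with medians of 0.06, 0.02 and 0.07. Ddc measured 27.9 to 75.5 CPM and Slc18a2, the vesicular monoamine transporter, 45.5 to 88.1 CPM, with ET replicate 2 highest for both, as it was within ET for Th. In K412R against WT the log2 fold change was −0.17 ± 0.33 for Ddc (edgeR adjusted p = 0.781) and 0.06 ± 0.21 for Slc18a2 (adjusted p = 0.883), beside −3.22 for Dbh. Pnmt, which makes adrenaline in chromaffin cells, was at 0 to 0.396 CPM.

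Of 13 receptor genes all were tested. In K412R against WT 2 lay above 0 and 11 below (median −0.26, against 0.01 over all genes), and Alk fell (−1.26 ± 0.24, edgeR adjusted p = 0.0292, 1.54e-04 to 0.141 over the alternatives), from 11.7, 16.3 and 15.8 CPM in WT to 4.90, 6.90 and 6.79. The 3 K412R libraries did not overlap with WT, and ET (7.11, 11.4 and 6.56 CPM) lay below WT and overlapped with K412R. Chrnb4 and Chrna5, whose genes adjoin Chrna3, had −1.27 ± 0.57 (adjusted p = 0.167) and −0.74 ± 0.40 (adjusted p = 0.231) in WT against ET. Without ET replicate 2, again only as a description, Chrnb4 had −1.67 with an adjusted p of 0.0268. Ret rose in that fit (1.04, adjusted p = 0.00648) but was not called with all libraries (0.55 ± 0.28, adjusted p = 0.210). None of the 13 was called for WT against ET or K238R against WT with all libraries.

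Among 16 granule, peptide and axon genes, Vip, a neuropeptide of cholinergic sympathetic and enteric neurons, rose in K412R against WT (1.59 ± 0.32, edgeR adjusted p = 0.0352, 3.31e-04 to 0.123 over the alternatives). It measured 2.02, 1.51 and 3.48 CPM in WT and 5.79, 9.33 and 6.23 in K412R, and it was at 1.78 to 3.11 CPM in ET and K238R. The other 15 were not called, 12 of the 16 lay below 0 (median −0.21), and none was called for WT against ET or K238R against WT. The calls of Tfap2b and Alk were lost in 5 of 12 fits that each left out 1 library, the same 5 as for Dbh, and that of Vip in 7 of 12.

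Over the 52 tested genes of the 4 lists, 0, 0 and 3 were called for WT against ET, K238R against WT and K412R against WT, beside 0.0489%, 0.174% and 2.02% of all genes. Unadjusted p-values under 0.05 were reached by 18 (12 above 0, 6 below), 10 (6 and 4) and 11 (3 and 8), or 34.6%, 19.2% and 21.2% of the 52, near the 29.1%, 17.6% and 22.8% of all genes. DESeq2 called 3, 2 and 6, or 5.77%, 3.85% and 11.5%, beside 11%, 4.27% and 9.18% of all genes. The count for WT against ET rested on ET replicate 2: without it 25 of 52 were called (17 higher and 8 lower, 48.1%, beside 31.0% of all genes), and 4 of the 8 members (Chrna3, Phox2a and Prph lower, Th higher).

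**Figure D4:**
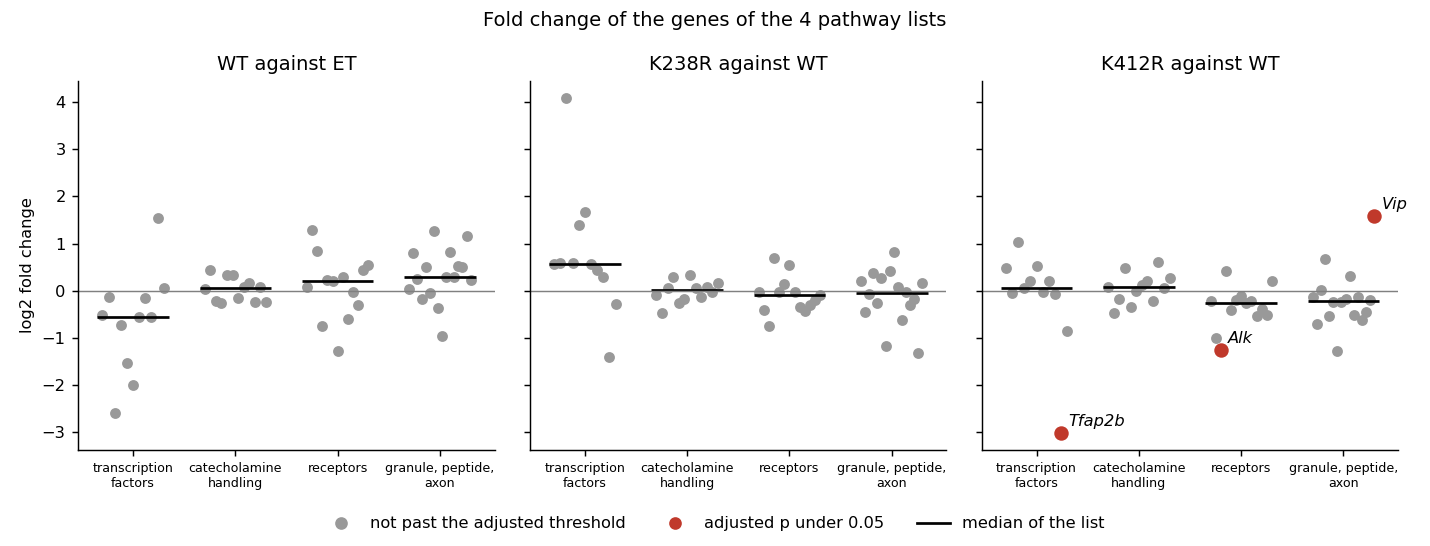
Log2 fold change of the 52 tested genes of the 4 pathway lists for WT against ET, K238R against WT and K412R against WT, grouped by list. Each point is a gene, red where it was called by edgeR at an adjusted p under 0.05 and gray otherwise. Red points appear in K412R against WT, for Tfap2b (−3.01), Alk (−1.26) and Vip (1.59).

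Marker lists of the other cells that use these genes are given beside them, and their part in the results was not tested. The 10 pan-neuronal genes summed to 2059 to 2916 CPM in ET, 2716 to 3668 in WT, 2694 to 3338 in K238R and 2016 to 2386 in K412R. Their median log2 fold change was 0.52 in WT against ET and −0.09 in K412R against ET. In K412R against WT all 10 were below 0 (median −0.68), and Elavl3 fell (−0.70 ± 0.12, edgeR adjusted p = 0.0188, 1.10e-05 to 0.104 over the alternatives). No gene of the other 12 lists was called in that comparison except Vip, which the enteric list also holds, and none of any list in WT against ET or K238R against WT with all libraries. Without ET replicate 2, WT against ET called 8 of 10 pan-neuronal genes (7 higher, 1 lower) and 7 of 10 midbrain dopaminergic genes (6 higher, 1 lower). It also called 5 of 6 motor neuron (all lower), 4 of 4 cholinergic (1 higher, 3 lower) and 5 of 5 squamous epithelium genes (all higher). These stand beside 31.0% of all genes. The share was 60% for enteric neuron, 44.4% for Schwann cell, 33.3% for habenula and 28.6% for trophoblast genes. It was 27.3% for sensory neuron, 16.7% for cardiac, 11.1% for neural crest progenitor and 0% for T cell genes. The 6 motor neuron markers, of which 3 also stand in other lists used here (Isl1, Chat and Slc18a3), summed to 61.0 to 187 CPM in ET, 36.3 to 72.9 in WT, 72.6 to 145 in K238R and 77.3 to 97.6 in K412R. Their median log2 fold change was −1.53 in WT against ET and 1.34 in K238R against WT, on the same side of 0 as Phox2a and Prph. The 4 cholinergic markers had medians of −1.15, 1.34 and 0.92 in WT against ET, K238R against WT and K412R against WT, where Ache lay on the other side of 0 from the other 3 each time (0.79, −0.50 and −0.73) and had r = −0.70 with Prph. Their sum, 69.0 to 84.1 CPM in ET, 72.2 to 90.4 in WT, 80.0 to 102 in K238R and 70.5 to 74.1 in K412R, did not follow Prph.

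Midbrain dopaminergic markers (10 genes) summed to 280 to 450 CPM in ET, 286 to 391 in WT, 319 to 421 in K238R and 317 to 458 in K412R, and Slc6a3 was at 3.53 to 22.6 CPM. Cardiac markers (9 genes, 3 of them under 1 CPM in every library) summed to 59.4 to 142 CPM in ET, 45.3 to 121 in WT, 50.5 to 65.1 in K238R and 32.2 to 65.9 in K412R. Of the 6 cardiac genes tested, 3 lay above 0 and 3 below in K412R against WT (median −0.02), with Gata4 at 1.24 ± 0.43 (edgeR adjusted p = 0.127) and Tnnt2 at −3.68 ± 1.05 (adjusted p = 0.0816). Gata4 had r = −0.72 with Dbh, opposite in sign to Tnnt2. Tnnt2, the gene closest to Dbh and Slc6a2 among the 119 listed, measured 9.56, 38.3 and 28.4 CPM in WT and 3.34, 0.679 and 2.02 in K412R. Sensory neuron markers (12 genes) summed to 173 to 314 CPM in ET, 324 to 412.1 in WT, 208 to 312 in K238R and 211 to 269 in K412R.

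Neural crest progenitor and Schwann cell markers, 9 genes each, had medians of 0.18 and −0.01 in K412R against WT. Those of the habenula, which also uses Chrna3 and Chrnb4, had −0.13 over 3 tested genes, and those of enteric neurons 0.21 over 5. Of markers that bear on Gata3, the trophoblast list had medians of −1.87, 1.24 and 1.03 in WT against ET, K238R against WT and K412R against WT, and the squamous epithelium list 0.89, −1.03 and 0.29. T cell markers stayed at a sum of 6.77 to 10.1 CPM, with 5 of 8 under 1 CPM in every library.

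The counts of some members can hold reads of a neighbor, because whether the counting used strand is not stated in the sources used here. Phox2a overlaps Inppl1 (64.8 to 98.1 CPM) on the opposite strand by 95 bases in GENCODE M21, and Hand2 overlaps Hand2os1 (0 to 0.561 CPM). Gata3 overlaps 4930412O13Rik on the opposite strand and 9230102O04Rik on its own strand, both annotated as protein-coding, so strand would not separate the second, and the annotated spans of Chrna3 and Chrna5 overlap in RefSeq.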

How the data were processed

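RNA from 12 teratomas (4 groups of 3) was sequenced as paired-end, poly(A)-selected CORALL libraries. The authors trimmed reads with fastp and used STAR and Salmon, and per the labels the build was GRCm39. Versions, annotation and strand setting are not given in the sources used here. The deposited values are estimated counts per gene and library, listed as whole numbers, and were used as such. Columns not mapped to a sample numbered 0.

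Counts were fitted with edgeR 4.0.16 (R 4.3.3; TMM scaling, filterByExpr, quasi-likelihood test, 1 mean per group, all 12 libraries), with Benjamini-Hochberg adjustment over 18405 genes and a threshold of 0.05. DESeq2 1.42.0 and the other settings were alternatives. The script was tested on simulated data. CPM divides by the library total. Correlations used log2(CPM + 1). At this depth 3 counts correspond to 0.162 to 0.177 CPM.

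The members and all gene lists were chosen with earlier results of these data known. Named are the 8 members, Dnmt3l, called genes of the lists (at most 4 per list), partner genes whatever their values (among them Hand1, Gata2, Ddc, Slc18a2, Chrnb4, Chrna5 and Ret), defining markers of other cell types, and genes from the 10 most like Dbh and the 10 most like the members' mean. Some genes that this rule names are not reported here. Hmx1, Pnmt, Chgb, Isl1, Neurog1 and other closest genes were named after their values were seen. Upstream sequences come from RefSeq (GRCm38.p6) and exon lengths from GENCODE M21, since no GRCm39 genome was used here. Their build differs from that of the counts, and only names link the tables.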

Additional observations from a re-analysis of the deposited data

How the results depend on the processing

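Of 760 fold changes of members under the alternatives, 26 moved by over 1 SD of log2(CPM + 1) within groups, pooled over the groups. Many of the 760 come from fits that left both compared groups whole, where a fold change can hardly move. The share is therefore no measure of stability. The 1 member value called in the reported fit, Dbh in K412R against WT, kept its sign. Some uncalled values changed sign when 1 library was left out. Among them were Hand2 (−0.12 to 1.80) and Phox2a (−0.05 to 0.65) in K412R against WT, and Th (−0.03 to 1.07) in WT against ET. The counts of calls moved more, and the cause was not tested. In the order WT against ET, K238R against WT and K412R against WT, the members called were 0, 0 and 1 in the reported fit, 1, 2 and 3 with DESeq2, 0, 1 and 3 with the groups compared fitted alone or with no filter on low counts, 4, 3 and 3 without ET replicate 2 and WT replicate 1, and 0 to 4, 0 to 2 and 0 to 3 when 1 library was left out. Pathway genes called were 0, 0 and 3, then 3, 2 and 6 with DESeq2, 0, 0 and 9 in the groups alone, 0, 1 and 3 with no filter, 27, 11 and 9 without both distant libraries, and 0 to 25, 0 to 2 and 0 to 6 when 1 library was left out. All genes called were 9, 32 and 372, then 1898, 786 and 1657 with DESeq2, 0, 360 and 1897 in the groups alone, 194, 272 and 614 with no filter, 5, 14 and 295 with library totals alone, 7006, 2109 and 3399 without both distant libraries, and 0 to 5820, 2 to 807 and 10 to 1540 when 1 library was left out. Against ET, DESeq2 called 14 genes for K238R, where leaving out 1 library called 0, and 90 for K412R, where no filter called 3, leaving out both distant libraries 369, and leaving out 1 library 0 to 256 (the 256 without ET replicate 2).

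Replicate numbers are shared by the groups. Of 18 pairs of same-numbered libraries, 11 deviated together with a correlation over 0.1 (−0.40 to 0.56), and 7 of 12 libraries were nearest to their own number. These values do not settle whether the numbers pair the libraries, and the reported fit did not pair them. With the replicate block, the members called were 0, 0 and 3, the pathway genes 3, 0 and 5, and all genes 917, 208 and 1155.

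Counts per library were 4 to 82 for Dbh, 7 to 47 for Hand2 and 11 to 116 for Slc6a2. How much of their spread came from depth was not tested.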
